A study of Oryza sativa with 10 samples.

Results

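The glutathione S-transferases (GSTs) of rice were taken as the loci whose deposited InterPro annotation holds the GST N-terminal entry (IPR004045) or the GST C-terminal entry (IPR004046). Of 37727 loci in the tables, 76 carried an entry. Leaving out 2 dehydroascorbate reductases and 3 elongation factor subunits by their descriptions left 71 members. By deposited symbol and description, 40 of these belong to the tau class, 18 to phi, 4 to zeta, 3 to lambda, 1 to theta and 1 to the TCHQD class. A further 2 carry glutaredoxin symbols (GRX12 and GRX20), and 2 have no class. The N-terminal entry was present in 66 members, the C-terminal entry in 34 and both in 29.

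The libraries are of wild-type Nijinokirameki, a rice (Oryza sativa) cultivar, sampled at day 5 after flowering in 2024. The 4 groups are endosperm under green manure (GM, 2 libraries), endosperm under chemical fertilizer (CF, 2 libraries), flag leaf under GM (3 libraries) and flag leaf under CF (3 libraries). GM plants grew in paddy soil into which hairy vetch had been plowed, with no chemical fertilizer. CF plants were given N at 56, PO4 at 176 and K at 56 kg/ha. Each endosperm library pooled spikelets of 1 plant, and the endosperm was separated from the embryo while frozen. The labels do not say whether leaf replicates are separate plants or whether a regime was repeated over plots. The p-values below thus measure the spread between these libraries, which may be partly technical. If a regime was not repeated over plots, a difference between plots cannot be told apart from one between GM and CF.

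GSTs join the small peptide glutathione to reactive or foreign compounds, after which ABCC-type transporters carry the conjugates into the vacuole. The tau and phi classes are large in plants and are best known for detoxifying herbicides and products of oxidative damage. Zeta enzymes act as maleylacetoacetate isomerases in tyrosine breakdown, lambda enzymes remove glutathione from adducts, and theta enzymes reduce organic hydroperoxides.

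Many tau and phi genes stand in tandem arrays. A run of neighbouring loci on chromosome 10, from Os10g0525400 to Os10g0531400, held 22 tau members among 31 loci. A second run on chromosome 1, from Os01g0369700 to Os01g0374000, held 9 members among 27 loci. A run of 4 tau members on chromosome 1, and runs of 4 phi members and of the 3 lambda members on chromosome 3, were shorter. In all, 42 members lay in such runs, and the deposited counts hold unique reads only, so levels of closely similar neighbours carry that uncertainty.

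Endosperm libraries held 18656783 to 20771235 counted reads under GM and 12200510 to 19173953 under CF. Leaf libraries held 12500336 to 15933394 under GM and 18540688 to 25827356 under CF, so the deepest GM leaf library had fewer reads than the shallowest CF one. All 4 endosperm marker genes examined (WX1, AGPL2, RPBF and RISBZ1) were higher in the endosperm libraries than in leaf. Of 3 markers of green tissue, RBCS and CAB2R were higher in leaf and LHCB1.1 was higher in endosperm.

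After the filter on low counts, 38 members could be tested for endosperm and 43 for flag leaf. Both tissues tested 32 of them, with 6 testable for endosperm alone and 11 for leaf alone. The other 22 members were tested in neither tissue, and 4 of them (GSTF11, GSTF7, Os01g0370600 and GSTU48) had no read in any library. Levels below are scaled CPM, read counts relative to library size, which are not corrected for transcript length, so they are compared between libraries for the same gene and not between genes.

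In the flag leaf, 2 members rose under GM: the tau member GSTU12 and the zeta member GSTZ2. That is 2 of the 43 tested, or 4.65%, against 2.94% of all 20208 genes tested (2.47% higher). No member fell, while 0.47% of all genes were called lower. A call here is an adjusted p under 0.05 in edgeR's quasi-likelihood test, with Benjamini-Hochberg adjustment over all genes tested in that tissue.

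GSTU12 (Os10g0527800), a tau member of the chromosome 10 run whose deposited annotation names regulation of leaf senescence, had 5.88, 5.95 and 4.85 CPM in GM leaves, against 1.84, 1.99 and 1.72 CPM in CF leaves. The groups did not overlap, and the lowest GM leaf was above every CF leaf. The means were 5.56 ± 0.615 CPM under GM and 1.85 ± 0.136 CPM under CF (SD, n = 3 each), from 227 and 119 reads in all. The log2 fold change was 1.58 (SE 0.18), with an adjusted p of 0.00306 in edgeR's quasi-likelihood test. Leaving out any 1 of the 6 leaf libraries kept the call. In bulk tissue, more cells of a type that holds a transcript and more RNA per cell cannot be told apart.

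GSTZ2 (Os12g0210300), a zeta member annotated with cold tolerance, had 38.1, 48.5 and 43.5 CPM in GM leaves, against 34.1, 31.0 and 26.5 CPM in CF leaves. All 3 GM leaves were above all 3 CF leaves. Its log2 fold change was 0.51 (SE 0.11), with an adjusted p of 0.0349 by edgeR's quasi-likelihood test. The call rested on single libraries. By the same edgeR test, the adjusted p was 0.0901 without GM leaf replicate 2, 0.105 without GM leaf replicate 3, 0.125 without CF leaf replicate 2 and 0.172 without CF leaf replicate 3. It was 0.061 when both tissues were fitted together. With every leaf library thinned to the reads of the shallowest one, GSTU12 and GSTZ2 were both still called.

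The other zeta members were not called in the leaf, and all 4 zeta members had positive log2 fold changes with a median of 0.35. GSTZ4, annotated with cadmium tolerance, had 1.59, 1.62 and 1.66 CPM in GM leaves, against 1.30, 0.431 and 0.574 CPM in CF leaves. The log2 fold change of 1.09 (SE 0.37) did not pass the adjusted threshold. GSTZ1 had a log2 fold change of 0.19 and GSTZ3 one of 0.00.

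**Figure D1:**
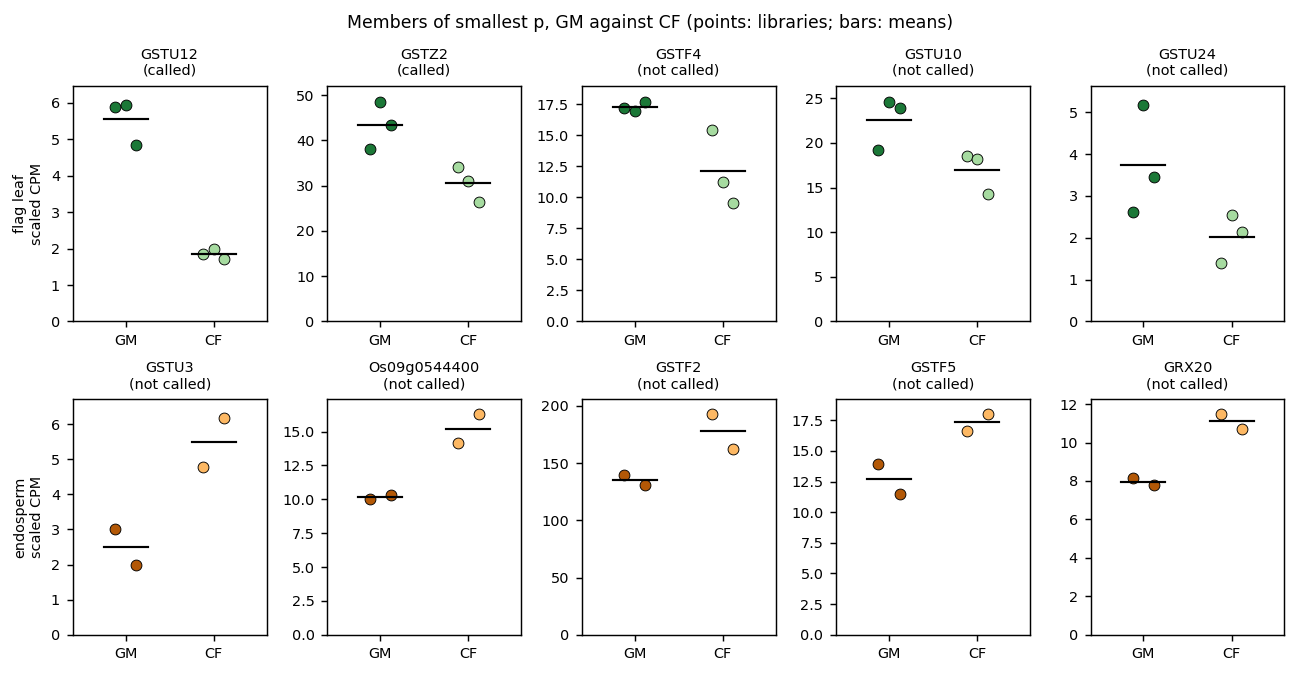
Scaled CPM (y axis, from 0) of the 5 members of smallest p in the flag leaf (top row) and in the endosperm (bottom row), with GM left of CF in each panel. Each point is a library and each bar a group mean. GSTU12 at 5.56 CPM under GM and 1.85 CPM under CF and GSTZ2 are the called members, and the bottom row holds none.

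The plot of the members of smallest p shows the 3 that came next in the leaf, all with the higher mean under GM and none called. GSTF4, a phi member, had 17.2, 16.9 and 17.7 CPM in GM leaves, against 15.4, 11.3 and 9.56 CPM in CF leaves. GSTU10, a tau member at the end of the chromosome 10 run, had 19.2, 24.6 and 23.9 CPM in GM leaves, against 18.5, 18.2 and 14.3 CPM in CF leaves. GSTU24, from the same run, had 2.62, 5.18 and 3.45 CPM in GM leaves, against 1.40, 2.53 and 2.14 CPM in CF leaves. In none of the 3 did the groups overlap. Their log2 fold changes were 0.52 (SE 0.15), 0.42 (SE 0.13) and 0.89 (SE 0.28), with adjusted p of 0.0986, 0.106 and 0.124 in edgeR's quasi-likelihood test.

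Over the 43 members tested in the leaf, the log2 fold changes ranged from -0.33 in GSTU18 to 1.58 in GSTU12. Their median was 0.14, against 0.00 over all genes tested. A positive value was seen in 32 of the 43, or 74.4%, against 50.3% of all genes. An unadjusted p under 0.05 was reached by 12 members upward and 2 downward (GRX20 and GSTU13), which is 27.9% and 4.65%, against 10.8% and 5.8% of all genes. The groups did not overlap for 14 members higher under GM and 6 lower, which is 32.6% and 14.0%, against 12.5% and 9.76% of all genes.

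Among the members with an unadjusted p under 0.05 that were not called, GSTF13, a phi member of the chromosome 1 run, had 3.73, 2.70 and 3.38 CPM in GM leaves, against 2.39, 2.37 and 1.91 CPM in CF leaves. GSTU11, a tau member on chromosome 7, had 3.18, 3.32 and 3.13 CPM in GM leaves, against 2.19, 1.99 and 2.49 CPM in CF leaves. GSTU39, a tau member on chromosome 1, had 1.91, 1.85 and 3.13 CPM in GM leaves, against 1.6, 1.35 and 1.38 CPM in CF leaves. In these 3 genes every GM leaf was above every CF leaf, with log2 fold changes of 0.57 (SE 0.21), 0.52 (SE 0.19) and 0.69 (SE 0.26).

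By class, 19 of 24 tau members and 5 of 7 phi members had positive log2 fold changes in the leaf, with medians of 0.20 and 0.14. Of the 13 members of the chromosome 10 run that were tested, 9 were positive, and their median was 0.06. Within the run, beside GSTU12, Os10g0528200 had a log2 fold change of 0.06 (SE 0.30) and GSTU13 one of -0.19 (SE 0.08). The number of leaf calls changed with single libraries: it was 6 without GM leaf replicate 1 (5 higher and 1 lower), 4 without CF leaf replicate 1, and 1 without any of GM leaf replicates 2 and 3 and CF leaf replicates 2 and 3.

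With all leaf libraries, the members with the most leaf reads did not pass the test. Without GM leaf replicate 1, GSTU17 was called higher and GRX20 lower. GSTU17 (Os09g0467200), a tau member annotated with response to abiotic stresses, had 402, 653 and 534 CPM in GM leaves, against 483, 462 and 397 CPM in CF leaves, and the groups overlapped. GSTL2 (Os03g0283100), the lambda homologue of maize In2-1, had 300.2, 328 and 320.1 CPM in GM leaves, against 332, 359.9 and 367 CPM in CF leaves. GRX20, a glutaredoxin annotated with tolerance to oxidative stress, had 307, 238 and 279 CPM in GM leaves, against 337, 317 and 321 CPM in CF leaves.

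GSTL2 and GRX20 both stood lower in every GM leaf than in every CF leaf, with log2 fold changes of -0.16 (SE 0.08) and -0.24 (SE 0.10). Neither was called. These 3 members took 57.2% of the members' summed CPM in GM leaves and 58.4% in CF leaves. Since transcript length is not corrected for, these are shares of scaled reads and not of transcripts. The summed CPM of all members was 1959 ± 155 in GM leaves and 1926 ± 55.1 in CF leaves (SD, n = 3 each), so the sums overlapped.

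In the endosperm, no member was called between GM and CF by edgeR's quasi-likelihood test, among 38 tested. Over all 23094 genes tested, 1.26% were called, nearly all of them lower under GM (1.23% lower and 0.0303% higher). DESeq2 and limma-voom also called 0 members. At an unadjusted p under 0.05, edgeR passed 2 members higher and 8 lower, which is 5.26% and 21.1%, against 5.25% and 9.4% of all genes. The median log2 fold change of the 38 was -0.09, against 0.00 over all genes, with a range from -1.27 in GSTU46 to 1.06 in GSTL1, and 25 of the 38 were negative. Positive values were seen in 34.2% of the 38, against 50.4% of all genes.

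The smallest p belonged to GSTU3 (Os10g0528400), a tau member of the chromosome 10 run. It had 3.03 and 2.00 CPM in GM endosperm, against 4.78 and 6.19 CPM in CF endosperm. Its fitted log2 change was -1.10 (SE 0.27), with an adjusted p of 0.0756 by edgeR's quasi-likelihood test. Os09g0544400, a phi member, had 9.98 and 10.3 CPM in GM endosperm, against 14.2 and 16.3 CPM in CF endosperm. On the log2 scale it differed by -0.58 (SE 0.14), with an adjusted p of 0.0838 by edgeR's quasi-likelihood test. In both genes the 2 GM libraries were below the 2 CF libraries.

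Of the next members by p, GSTF2 (Os01g0764000) is a phi member with the most endosperm reads of the family. It had 139 and 131 CPM in GM endosperm, against 193 and 162 CPM in CF endosperm, a log2 fold change of -0.40 (SE 0.11). GSTF5, a phi member, had 13.9 and 11.5 CPM in GM endosperm, against 16.7 and 18.0 CPM in CF endosperm. GRX20 had 8.13 and 7.78 CPM in GM endosperm, against 11.5 and 10.7 CPM in CF endosperm. In all 3 the GM libraries were the lower ones, and none passed the adjusted threshold.

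Groups did not overlap for 7 members higher and 13 lower under GM, which is 18.4% and 34.2%. With 2 libraries a group this is common: 22.8% of all genes were apart upward and 23.5% downward. All 8 members of the chromosome 10 run that were tested had negative log2 fold changes, from -0.04 to -1.20, and none was called. Of all genes, 50.4% had positive values. Among those with positive values, GSTL1, a lambda member, had 1.17 and 1.19 CPM in GM endosperm, against 0.55 and 0.578 CPM in CF endosperm. Its log2 fold change was 1.06 (SE 0.44). GSTU46, the tau member with the lowest value, had 1.90 and 0.811 CPM in GM endosperm, against 1.98 and 4.87 CPM in CF endosperm. The 2 CF libraries of GSTU46 thus lay further apart than its 2 GM libraries did, and its log2 fold change was -1.27 (SE 0.56).

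GSTF12 (Os01g0374000), the last phi member of the chromosome 1 run, had 36.8 and 57.7 CPM in GM endosperm, against 17.8 and 31.3 CPM in CF endosperm. The GM libraries were above the CF libraries, and each group was itself spread widely. Its log2 fold change of 0.96 (SE 0.45) had an adjusted p of 0.495 by edgeR's quasi-likelihood test. Leaving out an endosperm library leaves 1 in its group, which is then assumed to vary like the pair of the other group, so calls from such fits rest on the spread of 1 pair. In these fits GSTF12 passed the threshold without either GM library, at 1.25 without replicate 1 and 0.60 without replicate 2. The number of endosperm members past it was 4 without GM endosperm replicate 1 (GSTF12 higher, and GSTU3, GSTU17 and GSTU46 lower), 2 without GM endosperm replicate 2 (GSTF12 and GSTU30, both higher), and 0 without either CF library. For GSTU30, the GM library that was kept held 37 reads and the one left out held 0.

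Embryo and aleurone markers differed between the regimes in these endosperm libraries. Of 6 embryo and aleurone markers, 4 were called lower under GM (OLE16, OLE18, 1CYSPRXA and VP1), with a median log2 fold change of -0.88. Their summed level was 536 to 613 CPM in GM endosperm and 1095 to 1177 CPM in CF endosperm. The 3 green tissue markers summed to 993 to 1044 CPM in GM endosperm and 1281 to 1799 CPM in CF endosperm, and none was called. All 3 had negative log2 fold changes, with a median of -0.60, and 2 had an unadjusted p under 0.05 in edgeR. Since LHCB1.1 was higher in endosperm than in leaf, this sum is not a measure of green tissue alone. The 4 endosperm markers summed to 6410 to 8544 CPM under GM and 8145 to 8764 CPM under CF. Of these 4, 3 had negative log2 fold changes, with a median of -0.33 over the 4, and none was called. The nucellus marker FST had 79.7 to 83.7 CPM under GM and 81.0 to 90.7 CPM under CF. The part of embryo, aleurone and green tissue in the endosperm values above was not tested.

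The same 3 green tissue markers summed to 6353 to 8554 CPM in GM leaves and 5519 to 6173 CPM in CF leaves. They had positive log2 fold changes there, with a median of 0.33, and none was called. Their part in the leaf values was not tested either.

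A difference in the GM effect between tissues was tested directly, as the endosperm log2 fold change minus the leaf one, in a fit of all 10 libraries. No member was called among 50 tested in edgeR's quasi-likelihood test, against 0.615% of all 25035 genes, and DESeq2 and limma-voom called 0 as well. At an unadjusted p under 0.05, 1 of the 50 members passed upward and 10 downward, against 5.62% and 6.26% of all genes. The 3 green tissue markers all passed downward by the same rule, with a median difference of -0.90, and their part in the members' values was not tested. For 7 of the 50 (GSTF12, GSTF14, GSTF15 and GSTF6, with no leaf read, and GSTU8, GSTL3 and Os10g0528200, with no endosperm read) the difference has no measured value in one tissue.

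The members of smallest p in that test were GSTL1, with a difference of 1.35 (SE 0.39), GSTU3 with -2.34 (SE 0.77), GSTU2 with -0.45 (SE 0.15), GSTU12 with -1.73 (SE 0.61) and GSTF5 with -0.55. Their adjusted p in edgeR's quasi-likelihood test ran from 0.164 to 0.329. Over each group, GSTL1 held 48 reads in GM endosperm and 17 in CF endosperm. GSTU3 held 11 reads in GM leaves and 7 in CF leaves. For GSTU12, the endosperm value rested on 25 and 12 reads under GM, against 29 and 3 reads under CF. Without CF endosperm replicate 2 its difference was -2.39, with an adjusted p of 0.029 in the same edgeR test, where CF endosperm is 1 library with 29 reads and is assumed to vary like the other groups. Without CF endosperm replicate 1 it turned to 0.31. The sign of this difference thus changed with the CF endosperm library used.

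**Figure D2:**
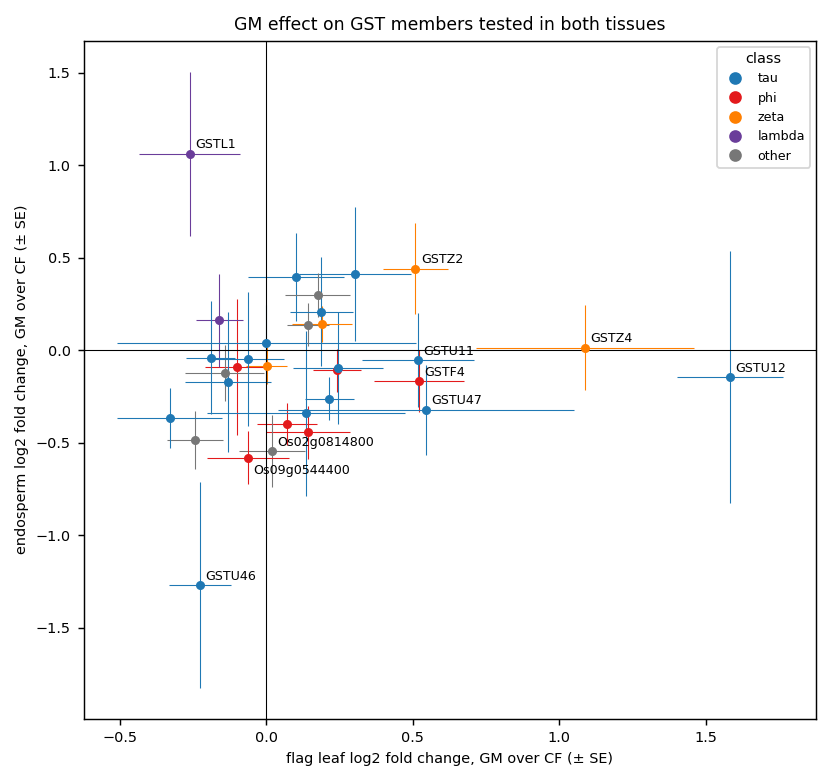
Log2 fold change of GM over CF in the endosperm (y axis) against that in the flag leaf (x axis) for the 32 members tested in both tissues, coloured by class. Bars are standard errors. GSTU12 lies at 1.58 in the leaf and -0.15 in the endosperm, GSTL1 at -0.26 and 1.06, and GSTU46 at -0.23 and -1.27.

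In the plot of both effects, no member was called in both tissues. Over the 32 members tested in both tissues, which come from different libraries, Pearson's r was 0.11 and Spearman's rho 0.19, given as a description across genes. The sign was shared by 18 members, 9 of them positive and 9 negative in both. It was negative in the endosperm and positive in the leaf for 12 members, and the reverse for 2. This split was not set beside all genes, and it partly follows from the mostly negative endosperm values and mostly positive leaf values. GSTZ2 was among those positive in both: it had 4.97 and 4.32 CPM in GM endosperm, against 4.01 and 2.72 CPM in CF endosperm, with a log2 fold change of 0.44 (SE 0.25).

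Differences between the tissues were far wider than those between the regimes. Under CF, 44 of 50 members tested differed between endosperm and leaf, 15 higher and 29 lower in endosperm. That is 88.0% of members, against 83.1% of all 25035 genes tested, so the share called is near the background. The direction was 30.0% higher and 58.0% lower among members, against 45.0% higher and 38.1% lower among all genes. The median log2 difference was -1.37 for members and 0.15 for all genes. Taken within 1 tissue, 11 members passed the count filter in leaf alone and 6 in endosperm alone. Members let in by the tissue where they are high have a direction largely set by the filter. The split by direction is thus a description only. The same holds under GM and for the counts by class, run and list below.

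Under GM, 45 members differed, 15 higher and 30 lower in endosperm, against 82.3% of all genes (44.6% higher and 37.7% lower), with a median of -1.87. The 2 comparisons use different libraries, and 14 members were higher and 29 lower in endosperm under both regimes. No member was called in opposite directions. Tissue and deposited table cannot be told apart, since each tissue came in a table of its own.

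**Figure D3:**
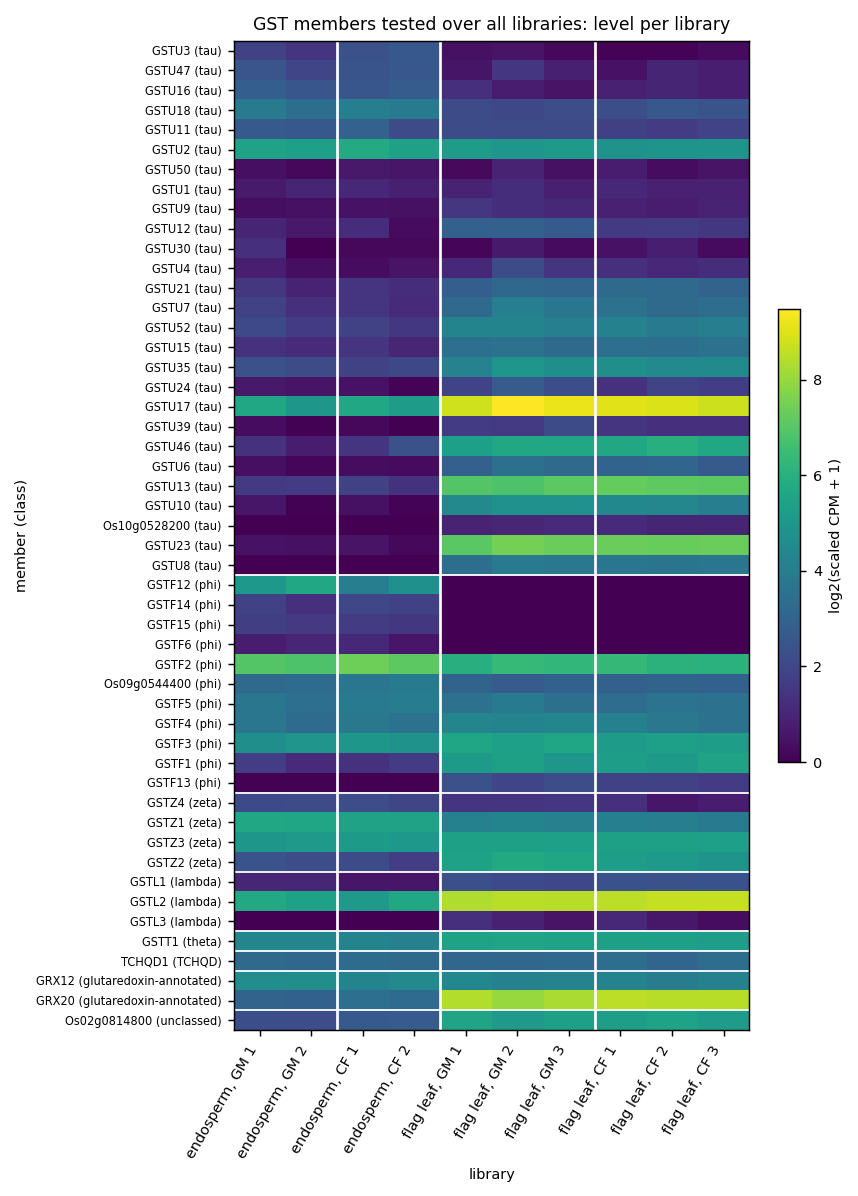
Level of the 50 members tested over all libraries, as log2(scaled CPM + 1), 1 row per member and 1 column per library (endosperm GM and CF, then flag leaf GM and CF). Rows are grouped by class and ordered by the tissue difference. Most tau rows are brighter in the 6 leaf columns, and 4 phi rows at the head of their block have no leaf signal.

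The heat map of all libraries gives the tissue pattern by class, and no difference between classes was tested. Among tau members, 6 were higher and 18 lower in endosperm than in leaf under each regime, of 27 tested, with a median log2 difference of -2.69 under GM and -2.70 under CF. Among the 11 phi members tested, 6 were higher and 4 lower under GM, with a median of 0.45, and 7 were higher and 3 lower under CF, with a median of 0.93. Of the higher phi members, GSTF12, GSTF14, GSTF15 and GSTF6 passed the count filter in endosperm alone, so their direction was largely set by it. GSTF13, a lower one, passed in leaf alone, as did several of the lower tau members. Of all genes, 44.6% were higher and 37.7% lower under GM, and 45.0% higher and 38.1% lower under CF. Zeta members were split 2 and 2 under each regime. All 3 lambda members, the theta member GSTT1, GRX20 and the unclassed Os02g0814800 were lower in endosperm. TCHQD1 was not called, and GRX12 was called higher in endosperm under GM and not under CF.

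GSTU8 (Os10g0529700), a tau member of the chromosome 10 run, had no read in any of the 4 endosperm libraries. It had 9.70, 14.1 and 13.0 CPM in GM leaves and 12.2, 11.4 and 12.3 CPM in CF leaves on the scale over all libraries. Against a floor of 3 reads over a group, it was at least 191-fold lower in endosperm than in leaf under GM and at least 141-fold lower under CF. Os10g0528200, from the same run, also had no endosperm read, and was at least 16.4-fold lower under GM and at least 12.2-fold lower under CF.

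GSTU23 (Os10g0530400) had 0.394 and 0.327 CPM in GM endosperm and 0.430 and 0.138 CPM in CF endosperm. In leaf it had 132, 181 and 159 CPM under GM and 160.0, 153 and 159 CPM under CF. The log2 difference was -8.96 (SE 0.24) under CF, and no endosperm library came near a leaf library. Its neighbour GSTU13 (Os10g0530500), also described as similar to glutathione S-transferase Cla47, averaged 2.11 ± 0.733 CPM in CF endosperm (SD, n = 2) and 141.5 ± 8.69 CPM in CF leaves (SD, n = 3), a log2 difference of -6.01 (SE 0.16).

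**Figure D4:**
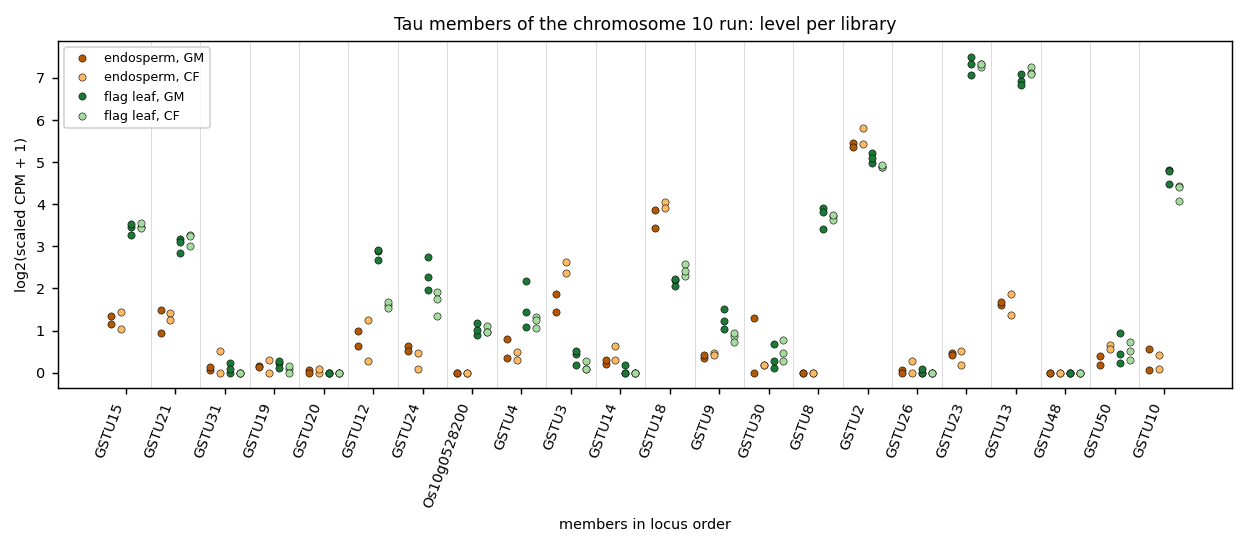
Level of the 22 tau members of the chromosome 10 run in locus order (x axis), as log2(scaled CPM + 1) per library (y axis). Points are libraries: endosperm GM, endosperm CF, leaf GM and leaf CF from left to right within each member. GSTU3, GSTU18 and GSTU2 have higher endosperm points, while GSTU23, GSTU13, GSTU8 and GSTU10 have far higher leaf points.

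The chromosome 10 run, drawn in locus order in the plot of its members, mixed both patterns. Of its 22 members, 16 were tested, and 3 were higher and 11 lower in endosperm than in leaf under CF, against 45.0% and 38.1% of all genes. The 3 higher ones were GSTU3, GSTU18 and GSTU2. GSTU3 had 2.64 and 1.73 CPM in GM endosperm and 4.15 and 5.18 CPM in CF endosperm, against 0.141 to 0.423 CPM in GM leaves and 0.0556 to 0.211 CPM in CF leaves. Its log2 difference was 2.87 (SE 0.44) under GM and 5.21 (SE 0.43) under CF.

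GSTU18 had 13.6 and 9.77 CPM in GM endosperm and 15.7 and 14.0 CPM in CF endosperm, against 3.13 to 3.68 CPM in GM leaves and 3.89 to 4.95 CPM in CF leaves. GSTU2 differed by less, with a log2 difference of 0.31 (SE 0.11) under GM and 0.75 (SE 0.11) under CF. In the run, GSTU3 is the next member after Os10g0528200 and GSTU4, which were lower in endosperm than in leaf, and GSTU2 is the next after GSTU8. Outside the run, the tau members GSTU47, GSTU16 and GSTU11 were higher in endosperm, with log2 differences of 2.73, 2.64 and 1.12 under CF.

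The summed CPM of the 22 members of the run, on the scale over all libraries, was 58.1 to 70.1 in GM endosperm and 68.1 to 85.5 in CF endosperm, against 355 to 407 in GM leaves and 382 to 404 in CF leaves. GSTU17, a tau member outside the run, had 51.1 and 31.6 CPM in GM endosperm and 49.8 and 36.9 CPM in CF endosperm, against 442 to 716 CPM in GM leaves and 437 to 539 CPM in CF leaves. Its log2 difference was -3.51 (SE 0.28) under CF.

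Among phi members, GSTF12, GSTF14, GSTF15 and GSTF6 had reads in every endosperm library and none in any leaf library. GSTF12 had 32.0 and 49.9 CPM in GM endosperm and 15.5 and 26.2 CPM in CF endosperm, at least 510.4-fold higher than leaf under GM and at least 406-fold under CF. GSTF14 and GSTF15, neighbours on chromosome 3, were at least 25.2-fold and 27.2-fold higher than leaf under GM, and at least 55.2-fold and 40.7-fold under CF. GSTF6 was at least 10.6-fold higher under GM and 15.9-fold under CF.

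Other phi members of the same runs were lower in endosperm. GSTF13, in the chromosome 1 run with GSTF12, had no read in CF endosperm and 2.67, 2.62 and 2.11 CPM in CF leaves, at least 29.1-fold lower in endosperm. GSTF1, in the same run, averaged 1.87 ± 0.483 CPM in CF endosperm (SD, n = 2) and 38.4 ± 4.11 CPM in CF leaves (SD, n = 3). GSTF3, in the run of GSTF14 and GSTF15, was slightly lower in endosperm, by a log2 difference of -0.36 (SE 0.10) under CF. That call, and those of GSTU9 and GSTZ3, were lost with upper-quartile scaling, which put the median difference of all genes at 0.32 instead of 0.15. The same 3 calls, and that of GSTU12, were also lost under CF without CF endosperm replicate 2, when 40 members were called, and those of GSTU11, GSTU4 and GSTU9 without CF endosperm replicate 1. GSTU9 was also not called without CF leaf replicate 3 or with DESeq2. Under GM, the call of GSTU11 was lost without any 1 of the 5 GM libraries and with DESeq2, that of GSTU2 without GM endosperm replicate 1 or GM leaf replicate 2, and that of Os09g0544400 without GM leaf replicate 2. The call of GSTZ3 under GM was lost with upper-quartile scaling. GSTF2 had 121 and 113 CPM in GM endosperm and 168 and 136 CPM in CF endosperm, against 62.6 to 81.1 CPM in GM leaves and 65.0 to 78.3 CPM in CF leaves.

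The 4 zeta members also went opposite ways, although GSTZ1 (Os12g0210200) and GSTZ2 (Os12g0210300) are adjacent in locus number. GSTZ1 had 49.7 and 47.4 CPM in GM endosperm and 42.8 and 43.7 CPM in CF endosperm, against 16.3 to 18.3 CPM in GM leaves and 13.9 to 16.1 CPM in CF leaves. GSTZ2 had 4.33 and 3.74 CPM in GM endosperm and 3.49 and 2.28 CPM in CF endosperm, against 41.9 to 53.2 CPM in GM leaves and 29.1 to 38.0 CPM in CF leaves. The log2 differences under CF were 1.51 (SE 0.09) and -3.51 (SE 0.19). No library of one tissue overlapped with the other tissue in either gene.

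The lambda members GSTL1, GSTL2 and GSTL3 lie side by side on chromosome 3 and were all lower in endosperm. GSTL2 had 51.4 and 42.6 CPM in GM endosperm and 32.9 and 49.9 CPM in CF endosperm, against 330.3 to 360.0 CPM in GM leaves and 371 to 404 CPM in CF leaves. GSTL3 had no endosperm read and was at least 14.3-fold lower than leaf under GM and 7.26-fold under CF. GSTL1 had a log2 difference of -1.75 (SE 0.24) under GM and -3.10 (SE 0.28) under CF. GRX20 averaged 9.48 ± 0.705 CPM in CF endosperm (SD, n = 2) and 360.1 ± 13.5 CPM in CF leaves (SD, n = 3). GSTT1 differed by a log2 value of -1.18 (SE 0.09) under CF.

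Genes that supply glutathione, use it in other reactions or move its conjugates were examined beside the family. Of 10 loci for glutathione synthesis, reduction and breakdown, 10 were testable for endosperm and 9 for leaf, and none was called for GM against CF by edgeR. None was called among 8 glutathione peroxidase loci (5 and 7 tested), 16 ABCC transporter loci (15 and 13 tested), 24 glutaredoxin loci outside the family (12 in each) or 2 dehydroascorbate reductase loci (1 and 2 tested). At an unadjusted p under 0.05, edgeR passed 2, 2, 1, 2 and 0 of these lower and 0, 0, 2, 0 and 0 higher in the endosperm, in that order of lists, against 9.4% of all genes lower and 5.25% higher. In the leaf it passed 4 of 12 glutaredoxins higher, against 10.8% of all genes, and no other gene of these lists. DESeq2 and limma-voom called none of these genes either.

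Among the ABCC transporters, MRP9, annotated with cadmium tolerance, had the smallest p, with 15.5 and 11.2 CPM in GM endosperm, against 8.80 and 8.25 CPM in CF endosperm. The fitted log2 fold change was 0.65 (SE 0.18), with an adjusted p of 0.119 in edgeR's quasi-likelihood test. The leaf glutaredoxin of smallest p was GRX6, annotated with regulation of nitrogen use, with 11.4, 14.1 and 12.5 CPM in GM leaves, against 9.87, 7.38 and 9.91 CPM in CF leaves. Its log2 fold change was 0.48 (SE 0.14), with an adjusted p of 0.0903 by the same edgeR test. Among peroxidases, the smallest adjusted p by edgeR's quasi-likelihood test was that of GPX3 in the endosperm (-0.32 on the log2 scale, 0.148) and of GPX1 in the leaf (-0.15, 0.332). Among the supply loci it was that of Os01g0151400, described as similar to gamma-glutamyl transferase, in the endosperm (-0.31, 0.198) and of GR2 in the leaf (-0.13, 0.430), again by edgeR.

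Glyoxalases use glutathione to clear methylglyoxal. The glyoxalase list was matched on annotation wording and was the list with calls. Of 12 loci tested, 2 fell in GM endosperm, or 16.7%, against 1.23% of all genes called lower there. Several loci of the list, GLYI6 among them, are described only by a glyoxalase/bleomycin resistance protein/dioxygenase domain, and GLYII-1 as a sulfur dioxygenase. Whether these loci use glutathione was not tested. None of 11 was called in the leaf by edgeR, DESeq2 or limma-voom, and none had an unadjusted p under 0.05 in edgeR. GLYI3, annotated with seed longevity and vigor, had 14.0 and 13.1 CPM in GM endosperm, against 34.5 and 32.0 CPM in CF endosperm. GLYI6 had 31.3 and 29.9 CPM in GM endosperm, against 48.1 and 50.5 CPM in CF endosperm. Neither gene's groups overlapped. The log2 fold changes were -1.29 (SE 0.12) and -0.69 (SE 0.10), with adjusted p of 0.000151 and 0.00438 by edgeR's quasi-likelihood test. GLYI3 had no read in any leaf library, and the embryo and aleurone markers were lower in the same GM endosperm libraries. Their part in the glyoxalase values was not tested.

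Between tissues, 6 of the 7 glutathione peroxidases tested were lower in endosperm than in leaf under GM, against 37.7% of all genes, and all 7 under CF, against 38.1%. Under CF, 3 glutathione supply loci were higher and 5 lower of 10 tested, and 5 ABCC transporters higher and 7 lower of 15. The glyoxalases were split 6 and 6 of 12, and the glutaredoxins 5 and 6 of 13. Over all genes, 83.1% were called under CF (45.0% higher and 38.1% lower), and the shares of called genes in these 4 lists lay around that background, from 80.0% for the supply loci and the transporters to every glyoxalase tested.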

How the data were processed

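The 10 libraries were made from poly(A) RNA with a directional kit, per the labels' protocols. The authors deposited raw counts of unique exon reads per locus, 1 table per tissue, per the labels' file descriptions. Reads were placed on IRGSP-1.0, as the submitters' processing notes name it. Neither aligner, counter nor strand setting of the counting is given in the sources used here. Members, classes and lists were read from the tables' own annotation, and all were chosen with earlier results of these data known.

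The count analysis used edgeR 4.0.16 under R 4.3.3: filterByExpr by group (minimum count 10), TMM scaling and the robust quasi-likelihood test. Each tissue was fitted alone for GM against CF, and all 10 libraries together for the tissue contrasts and the difference of effects. P-values were adjusted over all genes tested by Benjamini-Hochberg, with calls under 0.05. SE is the size of the log2 fold change divided by the square root of F. Levels are TMM-scaled CPM, within a tissue for GM against CF and over all libraries between tissues. Precision is limited by counting in low members, and floors of 3 reads cover counting error only. The procedure was tested on simulated data in which only well-counted genes were changed. Every simulated gene was given the same spread between libraries. The outcome thus does not cover members with few reads or with a wide spread. For the difference of effects, 17 of 50 genes changed by -1 on the log2 scale were recovered, and 28 of 50 changed by 1. DESeq2 1.42.0, limma 3.58.1 (voom), other scalings and filters, a replicate block and each library left out were alternatives; thinning leaf libraries to equal depth was chosen after seeing the data. Tables were handled in Python 3.11.15 with pandas 2.3.3 and drawn with matplotlib 3.10.9. Same-numbered libraries did not deviate together (r of -0.087 in the endosperm and -0.019 to 0.040 in the leaf), so numbers were not taken to pair them.

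Members named are those called for GM against CF or for the difference between tissues, the 5 of smallest p in each of those fits, the 8 with the highest mean CPM in each tissue and the 5 with the largest tissue difference each way under CF; others named were chosen after their values were seen. Of the lists, the called genes are named and, for some lists and tissues only, the 1 gene of smallest p. A tandem run is a chain of members at most 30 table rows apart.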

Additional observations from a re-analysis of the deposited data

How the results depend on the processing

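Under RLE and upper-quartile scaling, DESeq2 and limma-voom the number of members called stayed at 2 in the leaf and 0 in the endosperm, and equal depth of the leaf libraries also gave 2. Without a filter 5 members were called in the endosperm (GSTF12 higher, and GSTF2, GSTU3, GSTU46 and Os09g0544400 lower) and 4 in the leaf (GSTF4 and GSTU10 added). A filter of 5 CPM left GSTU12 untested and 1 leaf call, and fitting both tissues together also left 1. Leaving out single libraries gave 0 to 4 calls in the endosperm, 1 to 6 in the leaf and 0 to 1 for the difference between tissues. The cause was not tested.

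With the replicate number as a block, 1 member was called in the endosperm (GSTF12 higher) and 3 in the leaf (GSTU24 added), but the numbers only name the libraries.

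The values below were not called with all libraries, and turned under an alternative. In 3 cases a fit with a library left out did pass the threshold in one direction while another fit gave the opposite sign: GSTU17 in the endosperm (lower in the absence of GM replicate 1), GSTU12 for the difference between tissues (lower in the absence of CF endosperm replicate 2) and GSTU30 between tissues under GM, which passed lower in the absence of GM endosperm replicate 1 and higher in the absence of replicate 2. Each of these fits has a lone endosperm library in a group, assumed to vary like the others. With single libraries left out, GSTU12's difference between tissues ran from -2.39 to 0.31, positive when CF endosperm replicate 1 was absent. The endosperm values ran from -0.14 to 0.52 for GSTL2, from -0.48 to 0.20 for GSTU17 (0.11 when CF replicate 1 was absent) and from -0.22 to 0.0022 for GSTF3. The leaf values ran from -0.11 to 0.12 for GSTU23 (-0.0077 when CF replicate 2 was absent) and from -0.016 to 0.17 for GSTF2. With upper-quartile scaling GSTU23 was -0.013 in the leaf. Of the named members' values, 254 kept direction and side of the threshold with a library left out and 293 under the other settings, against 8 and 1 that turned. The rest kept direction but changed side of the threshold. Of these, 4 lost a call with a library left out and 1 under the other settings. The others gained a call, some of them in fits with a lone endosperm library in a group.

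Between tissues under CF, 40 to 45 members were called with a library left out and 41 to 50 under the other settings, except 32 with the 5 CPM filter, which removed 13 of the called members. Under GM the numbers were 42 to 46 and 44 to 48, and again 32. The glyoxalase calls in the endosperm were 1 with both tissues fitted together. Glutaredoxin calls in the leaf were 1 with no filter, and 2 in the absence of GM leaf replicate 1. ABCC transporter calls in the endosperm were 1 with no filter or in the absence of GM endosperm replicate 2. Low members set the limit of precision: the endosperm values of GSTU12 and GSTL1 and GSTU3's leaf value rest on few reads a library.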

Other observations

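GSTU30 (Os10g0529500), a tau member annotated with heavy metal and drought tolerance, drew its endosperm reads from 1 library: 37 reads in GM replicate 1 and 0 in GM replicate 2, against 3 and 2 reads in CF endosperm. It was not tested in the endosperm, and its leaf libraries held 1, 7 and 3 reads under GM, against 7, 12 and 5 under CF.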
